A study of Mus musculus with 17 samples.

Results

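The IL12-GEMy Cell Product is the suspension of engineered myeloid cells that was injected into the mice of a study on how rhabdomyosarcoma prepares the lung for metastasis. It is 1 of the 17 libraries, and it was picked by its label alone. Per the labels it came from bone marrow of naive C57BL/6 mice and was treated by lentiviral transduction plus the cytokines SCF, FLT3L and IL-6. GEMy stands for genetically engineered myeloid cell, and the transduced share of the cells was not analysed here. It was read against 4 lungs of tumor-free, untreated C57BL/6 mice (No Tumor No Treatment, n = 4). The other lungs, all C57BL/6, were Tumor+IL12-GEMy (n = 4) and Tumor No Treatment (n = 4), from mice with 500000 M3-9-M ffluc-mCherry rhabdomyosarcoma cells placed in the gastrocnemius muscle, and No Tumor+IL12-GEMy (n = 4). Treated mice received 8000000 IL12-GEMy cells by vein, on day 12 in tumor-bearing mice, and lungs were taken 3 days later, on day 15 of tumor growth. M3-9-M is a mouse rhabdomyosarcoma line that carries firefly luciferase and mCherry here. Age, sex and the number of marrow donors are not given in the sources used here, and nothing states that numbered lungs came from separate mice. The deposited names of tumor-bearing lungs carry a code whose digit differs between treated and untreated lungs, and its meaning is not stated. In that pair, whatever the digit marks cannot be told apart from treatment. The product has no replicate, so every statement about it describes 1 library, and an exact permutation of 1 value against 4 could not go below p = 0.2.

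Myeloid cells arise in the marrow from stem cells through progenitors that divide fast and then commit to granulocytes or monocytes. Granulocytes make their granules in a fixed order: the peroxidase and serine proteases of the primary granule belong to the promyelocyte, the contents of the secondary and tertiary granules to later stages, and surface receptors for chemotaxis to the mature neutrophil. Ccr2 guides monocytes out of the marrow and into tissue. IL-12 is a cytokine of 2 chains, encoded by Il12a and Il12b, that drives interferon gamma production by T and NK cells, and GEMy cells are built to release it.

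The product library held 31111610 assigned reads, against 27939870 to 29721558 in the 4 untreated tumor-free lungs and 27566909 to 36814790 over all 16 lungs. Values are RPM, the deposited FPKM rescaled so that each library sums to 1000000 assigned reads. A gene is called higher or lower where the product differed at least 4-fold from the lung mean (with 0.5 RPM added to both) and lay outside the range of the 4 lungs. Of 14759 genes with at least 1 RPM in the product or in the lung mean, 1225 were called higher (8.30%) and 3551 lower (24.1%), and the median log2 ratio of product over lung was -0.06. These calls carry no test, and the 2 shares are the background for list counts of the product below at this setting only. Counts at another setting have another background. On log2(FPKM + 0.5), 577 of the 14759 genes were called higher and 1113 lower. Against all 16 lungs, 920 genes were called higher and 3418 lower. At least 1 RPM was reached by 11670 genes in the product and by 14370 to 14490 genes in the lungs. The 12 housekeeping genes of a fixed list had a median log2 ratio of 1.16, with 3 called higher. With all ratios set back by that amount, 479 genes were called higher and 4796 lower, and higher genes made up 9.08% of the calls in place of 25.6%. With that scaling the list medians of stem and progenitor, secondary and tertiary granule, culture cytokine receptor, other growth factor receptor, chemokine receptor, myeloid suppression and cell cycle inhibitor genes were at or below 0. Where that scaling, or all 16 lungs as the comparison, changed a list's count of higher genes by over 1.5 times, the new count stands beside it. The same holds for log2(FPKM + 0.5), called the FPKM scale here, on which genes with a long span come closer to the added 0.5. Genes with near-identical copies (globin, Ly6c, H2 and Gbp genes) may share reads. Lung is a mixture of cell types, so for each gene the share of cells that carry it and the RNA per cell cannot be told apart.

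Primary granule genes were far above the lungs in the product. Of the 12 listed, some of which encode no granule protein, 11 were called higher and none lower (background 8.30% higher), with a median log2 ratio of 5.14. Mpo, the myeloperoxidase that makes hypochlorous acid, had 1759 RPM in the product, against 1.72, 2.01, 0.774 and 3.73 RPM in the 4 lungs, a log2 ratio of 9.43. The gene lies at chr11:87793784-87804412 (mm10). All 4 lungs were low, and the product lay far above each. Ctsg, which encodes the serine protease cathepsin G, had 393 RPM in the product and 0.179, 0.239, 0.0703 and 0.202 RPM in the lungs (log2 ratio 9.19; chr14:56099885-56102574). Prtn3, encoding proteinase 3, had 401 RPM in the product and 0.537, 0.614, 0.492 and 0.908 RPM in the lungs (log2 ratio 8.46). Elane, encoding neutrophil elastase, had 261 RPM in the product and 0.394, 0.477, 0.352 and 0.774 RPM in the lungs (log2 ratio 8.03). Prtn3 (chr10:79879667-79883172) and Elane (chr10:79886312-79888216) are neighbours on the same strand. Ms4a3, a membrane protein gene of granulocyte-monocyte progenitors, had 183 RPM in the product and 0.0352 to 0.101 RPM in the lungs. In every one of these genes the product and the lungs were separated by more than the whole lung range. Mpo, Ctsg, Prtn3, Ms4a3 and Elane were also the 5 highest log2 ratios of all genes with at least 50 RPM in the product, outside the gene classes left out of ranking.

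The rest of the list was graded. Ctsc, the cathepsin that activates the granule proteases, had 1437 RPM in the product and 285 to 341 RPM in the lungs, and Srgn, the proteoglycan that packs them, had 473 RPM in the product and 99.4 to 106 RPM in the lungs. Hk3 had 213 RPM in the product and 5.40 to 8.01 RPM in the lungs. Prss57, a further serine protease of the primary granule, reached only 11.2 RPM in the product, against 0.139 to 0.654 RPM in the lungs. Lyz2, lysozyme, was the exception: the product had 3729 RPM and the lungs 5667, 5478, 6090.3 and 5451 RPM (log2 ratio -0.61), so the product lay below all 4 lungs without reaching the 4-fold limit. Lyz2 is also made by lung macrophages and alveolar epithelium. Levels of different genes can be set side by side only per length. Per kilobase of exon, Lyz2 had 2833 RPM and ranked 3 of 17773 genes in the product, Mpo had 514 and ranked 47, Ctsg had 380.2 and ranked 74, Prtn3 had 269.7 and ranked 111, and Elane had 265 and ranked 114.

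The promoters of the peroxidase gene and the 3 serine protease genes among the highest ratios are shown. Each run is the 150 bases before the transcription start in RefSeq GRCm38.p6 (the build mm10), 5′ to 3′ on the gene's strand, and stands at Mpo, chr11:87793634-87793783, plus strand; Elane, chr10:79886162-79886311, plus strand; Prtn3, chr10:79879517-79879666, plus strand; and Ctsg, chr14:56102575-56102724, minus strand. Capitals mark GAGGAA, the core of the motif of the myeloid factor PU.1, or TGTGGT, the core of the RUNX motif (ACCACA on the other strand).
Mpo: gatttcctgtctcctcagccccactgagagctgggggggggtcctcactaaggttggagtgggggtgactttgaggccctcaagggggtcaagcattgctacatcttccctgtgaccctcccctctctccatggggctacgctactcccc
Elane: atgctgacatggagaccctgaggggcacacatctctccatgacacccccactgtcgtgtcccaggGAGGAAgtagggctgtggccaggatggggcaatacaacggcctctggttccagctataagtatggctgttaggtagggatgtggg
Prtn3: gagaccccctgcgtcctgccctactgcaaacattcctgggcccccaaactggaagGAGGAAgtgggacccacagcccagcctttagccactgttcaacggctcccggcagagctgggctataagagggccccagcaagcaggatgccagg
Ctsg: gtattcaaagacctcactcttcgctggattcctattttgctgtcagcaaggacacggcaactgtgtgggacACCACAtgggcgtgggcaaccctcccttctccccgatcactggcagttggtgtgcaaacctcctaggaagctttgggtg
Elane and Prtn3 each held 1 GAGGAA, and Ctsg held 1 ACCACA. Neither motif was in the Mpo window, and TTNCNNAA, the core of the C/EBP motif, was in none of the 4. The letters were searched on both strands. GAGGAA was in 3 of the 10 primary granule promoters that the table held and in 14.5% of all 32851 promoters of the same window, TGTGGT in 3 of 10 and 8.40%, and TTNCNNAA in 2 of 10 and 22.7%. These are matches of letters in a short window, and the 32851 promoters were not limited to 1 start per gene or to measured genes.

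**Figure D1:**
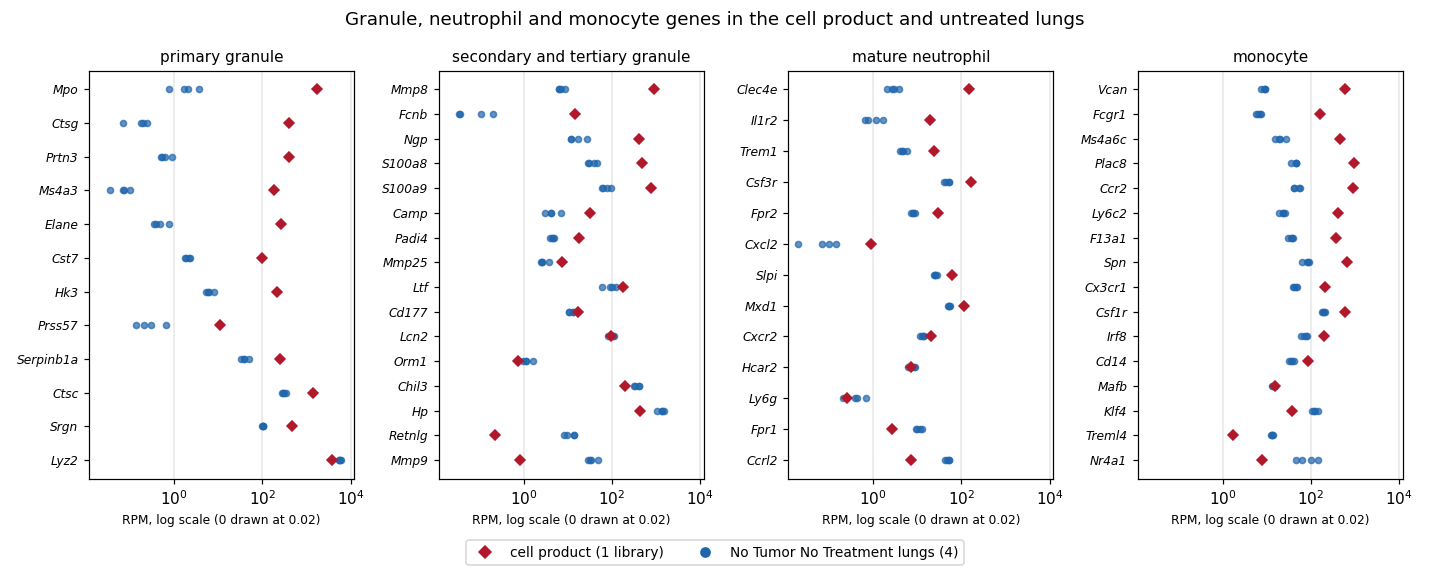
RPM on a log scale (a value of 0 is drawn at 0.02) of granule, mature neutrophil and monocyte genes named in the panels, with the cell product as red diamonds (1 library) and the 4 No Tumor No Treatment lungs as blue points. Mpo, Ctsg, Prtn3, Ms4a3 and Elane of the product lie far right of the lungs, Lyz2 lies left of them, and Mmp9 and Retnlg lie left of them among the later granule genes.

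Later granule genes split. Of 16 genes listed with the secondary and tertiary granules, 6 were called higher and 2 lower, with a median log2 ratio of 1.10. The list also holds genes of proteins outside granules, among them the calprotectin chains. Mmp8, neutrophil collagenase, had 881 RPM in the product and 6.48, 6.44, 7.03 and 8.68 RPM in the lungs (log2 ratio 6.85). S100a9 and S100a8 encode the 2 chains of calprotectin. S100a9 had 769 RPM in the product and 60.0, 63.1, 79.0 and 95.8 RPM in the lungs, and S100a8 had 476 RPM in the product and 29.4, 30.4, 40.1 and 46.6 RPM in the lungs. Ngp, a protein of the secondary granule, had 405 RPM in the product and 11.6 to 26.7 RPM in the lungs. Camp, the antimicrobial cathelicidin, had 31.3 RPM in the product and 3.02 to 7.10 RPM in the lungs. Ltf, lactoferrin, was above the lung range without a call, at 179 RPM in the product and 59.4 to 121 RPM in the lungs. Lcn2, at 97.4 RPM in the product, lay inside the lung range of 82.0 to 109 RPM. At the opposite end were late genes: Mmp9, the gelatinase of the tertiary granule, had 0.836 RPM in the product and 33.2, 32.1, 28.2 and 47.7 RPM in the lungs (log2 ratio -4.74), and Retnlg had 0.225 RPM in the product and 8.11 to 14.2 RPM in the lungs. With all 16 lungs for comparison, 2 of the 16 were called higher and 2 lower, and the median was -0.11. Tumor-bearing lungs held much S100a8 themselves, at 349 to 1008 RPM in Tumor+IL12-GEMy lungs and 651 to 1227 RPM in Tumor No Treatment lungs.

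Of 12 mature neutrophil genes with enough reads, 4 were called higher and 1 lower, with a median of 1.53. Clec4e, a receptor for microbial glycolipids, had 146 RPM in the product and 2.08 to 3.94 RPM in the lungs (log2 ratio 5.43). Csf3r, the G-CSF receptor, had 169 RPM in the product and 40.3 to 52.9 RPM in the lungs and was not called. Cxcr2, the chemokine receptor through which mature neutrophils leave the marrow, had 20.9 RPM in the product and 11.6 to 14.3 RPM in the lungs, and Fpr1, a formyl peptide receptor, had 2.64 RPM in the product and 9.33 to 12.8 RPM in the lungs. Ly6g, the defining surface marker of the mouse neutrophil, was at 0.257 RPM in the product, inside the lung range of 0.205 to 0.673 RPM, and too low to be counted. Against all 16 lungs, 1 of the mature neutrophil genes was called higher and 2 lower, with the housekeeping scaling 2 higher and 2 lower, and on the FPKM scale 1 higher and 1 lower.

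Most monocyte genes were above the lungs as well. Of 16, 9 were called higher and 2 lower, with a median of 2.63. Ccr2 had 919 RPM in the product and 42.1, 53.1, 56.9 and 41.6 RPM in the lungs (log2 ratio 4.23; chr9:124102183-124109140). Plac8 had 939.6 RPM in the product and 34.4, 45.4, 46.8 and 45.8 RPM in the lungs. Both genes were many times above every lung. Vcan, the proteoglycan versican, had the largest ratio of the list, with 601 RPM in the product and 8.73, 7.47, 9.14 and 9.12 RPM in the lungs (log2 ratio 6.04). Spn, the sialoglycoprotein CD43, had 667 RPM in the product and 64.2 to 92.5 RPM in the lungs. Ly6c2, the antigen of inflammatory monocytes, had 402 RPM in the product and 18.8 to 25.5 RPM in the lungs, and its near-identical neighbours may share reads with it. F13a1, a coagulation factor chain, had 373 RPM in the product and 30.5 to 38.6 RPM in the lungs. Csf1r, the receptor for M-CSF, was above the lungs without a call, with 593 RPM in the product and 178 to 206 RPM in the lungs. The 2 genes called lower were Nr4a1 and Treml4. Nr4a1, a nuclear receptor gene, had 7.65 RPM in the product and 64.0, 46.5, 100.3 and 145 RPM in the lungs. Treml4 had 1.70 RPM in the product and 12.2 to 13.8 RPM in the lungs. Nr4a1 is also an immediate early gene, and its lung values spread about 3-fold.

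Genes of tissue macrophages were mixed, with 3 of 15 called higher and 5 lower (background 8.30% and 24.1%) and a median of -0.39. Gpnmb, a lysosomal glycoprotein, had 517 RPM in the product and 21.1, 22.9, 25.5 and 23.01 RPM in the lungs (log2 ratio 4.45). Cd68, the lysosomal macrophage marker, had 222 RPM in the product and 46.0 to 62.9 RPM in the lungs (log2 ratio 1.98), and Adgre1, which encodes F4/80, had 117 RPM in the product and 29.2 to 33.8 RPM in the lungs. Neither was called. Apoe, the lipid carrier, had 10.6 RPM in the product and 478 to 597 RPM in the lungs (log2 ratio -5.60). Mertk, a receptor for dying cells, had 2.19 RPM in the product and 50.04 to 56.9 RPM in the lungs, and C1qa, a chain of complement C1q, had 5.95 RPM in the product and 39.1 to 44.6 RPM in the lungs. Marco, a scavenger receptor of alveolar macrophages, had no read in the product and 8.88 to 12.4 RPM in the lungs. With the housekeeping scaling 1 of the 15 was called higher and 5 lower, and on the FPKM scale 1 higher and 3 lower.

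Dendritic cell and antigen presentation genes were counted as 2 lists (background 8.30% higher and 24.1% lower). The product lay below all 4 lungs in 10 of 14 dendritic cell genes and 6 of 11 MHC class II genes, against 7139 of all 14759. It lay above all 4 lungs in 3 and 2 of them, against 6698 of all. Of 14 dendritic cell genes 1 was called higher and 5 lower (median -1.11), and none higher and 2 lower on the FPKM scale. The higher one was Flt3, which is described with the growth factor receptors. Cst3 had 303 RPM in the product and 527 to 643 RPM in the lungs, and Itgax, which encodes CD11c, had 29.8 RPM in the product and 56.4 to 70.1 RPM in the lungs. Cd209a had no read in the product and 10.2 to 13.5 RPM in the lungs, and Zbtb46, the transcription factor of conventional dendritic cells, had 1.41 RPM in the product and 19.9 to 24.8 RPM in the lungs. Of 11 MHC class II genes, Ctss was called higher and H2-Ob lower (median -0.49). Ctss, the protease that trims the invariant chain, had 1119 RPM in the product and 175 to 213 RPM in the lungs. Cd74, the invariant chain, had 752 RPM in the product and 1831 to 2165.5 RPM in the lungs, and H2-Aa had 211 RPM in the product and 630.1 to 736 RPM in the lungs, below all 4 lungs and within 4-fold. H2-Ob had 6.78 RPM in the product and 34.5 to 49.97 RPM in the lungs. No class II gene was called higher against all 16 lungs (4 lower) or with the housekeeping scaling (5 lower), where 8 dendritic cell genes were called lower.

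**Figure D2:**
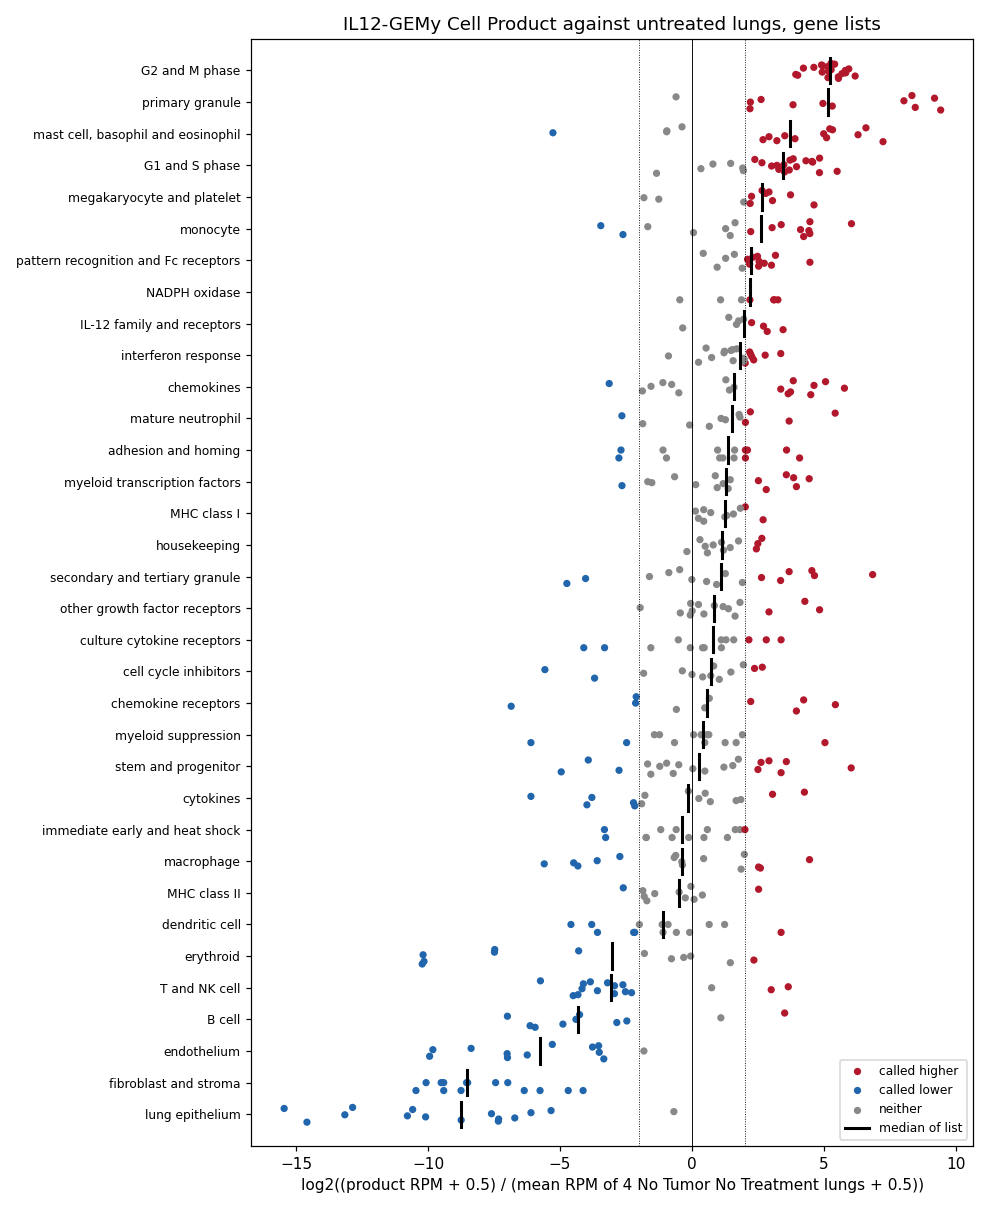
Log2 ratio of product over the mean of the 4 No Tumor No Treatment lungs (0.5 RPM added to both) for each measured member of 34 gene lists, ordered by the list median (black bar). Red points were called higher, blue points lower and grey points neither; dotted lines mark the 4-fold limits. Cell division and primary granule genes lie at the top and lung epithelium, fibroblast and endothelium genes at the bottom.

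Stem and progenitor genes gave no single picture. Of 20, 6 were called higher and 3 lower, with a median of 0.26. Kit, the SCF receptor, had 82.2 RPM in the product and 251, 238, 237 and 249 RPM in the lungs (log2 ratio -1.56), and Cd34 had 264 RPM in the product and 258, 242, 286 and 249 RPM in the lungs (log2 ratio 0.03). Both are also expressed outside blood cells, Cd34 in endothelium. Ly6a, which encodes Sca-1, had 774 RPM in the product and 318 to 348 RPM in the lungs. Myb, the transcription factor of dividing progenitors, had 227 RPM in the product and 19.2, 18.1, 20.5 and 16.5 RPM in the lungs (log2 ratio 3.57). Hoxa9, a homeobox gene of immature blood cells, had 33.4 RPM in the product, against 0, 0.0341, 0.0352 and 0 RPM in the lungs, the largest ratio of the list (log2 ratio 6.03), on only 2 reads in the lungs. Cd48 had 113 RPM in the product and 15.8 to 24.8 RPM in the lungs. Mecom, a factor of long-term stem cells that lung endothelium also expresses, had 1.77 RPM in the product and 66.9 to 73.9 RPM in the lungs, and Eng, also an endothelial gene, had 57.2 RPM in the product and 699 to 1034 RPM in the lungs. Hlf and Meis1, further stem cell genes, were at 10.9 and 37.6 RPM in the product and were not called. With the housekeeping scaling, 3 members were called higher and 7 lower, and on the FPKM scale 2 higher and 2 lower.

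Of 16 myeloid transcription factor genes, 6 were called higher and 1 lower (median 1.28). With all 16 lungs for comparison 4 were called higher and 2 lower, and with the housekeeping scaling 4 higher and 3 lower. Spi1, which encodes PU.1, had 249 RPM in the product and 28.7, 36.3, 34.1 and 40.7 RPM in the lungs (log2 ratio 2.81). Ikzf1 had 364 RPM in the product and 49.6 to 73.1 RPM in the lungs. Myc, the driver of cell growth, had the largest ratio, with 214 RPM in the product and 8.98, 8.18, 9.99 and 10.4 RPM in the lungs (log2 ratio 4.44). Gfi1 and Cebpe, factors of the granulocyte branch, were called at low levels, Gfi1 with 22.4 RPM in the product and 0.716 to 1.40 RPM in the lungs and Cebpe with 11.4 RPM in the product and 0.205 to 0.572 RPM in the lungs. Irf8, the factor of the monocyte branch, had 199 RPM in the product and 61.0 to 81.6 RPM in the lungs without a call. Cebpa, which alveolar cells also use, had 47.1 RPM in the product and 127 to 145 RPM in the lungs. Zeb2, at 323 RPM in the product, was above the lung range of 132 to 169.7 RPM. Egr1, an immediate early gene, was the gene called lower, with 18.7 RPM in the product and 77.6 to 158 RPM in the lungs.

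Killing and sensing genes of phagocytes were mostly above the lungs. Of 7 NADPH oxidase genes 4 were called higher and none lower (median 2.19). Cybb, the catalytic chain of the oxidase, had 999 RPM in the product and 97.4, 118, 143 and 109 RPM in the lungs. Ncf1, its cytosolic partner, had 541 RPM in the product and 54.5, 57.8, 50.2 and 62.3 RPM in the lungs. With the housekeeping scaling 1 of the 7 was called higher. Of 16 pattern recognition and Fc receptor genes, 11 were called higher and none lower (median 2.24). Fcgr1, the high-affinity IgG receptor, had the largest ratio, with 157 RPM in the product and 5.69 to 7.47 RPM in the lungs. Tyrobp and Fcer1g, the adaptors of many of these receptors, had 254 and 242 RPM in the product, against 49.0 to 67.0 and 36.9 to 43.9 RPM in the lungs. Myd88, the adaptor of most Toll-like receptors, had 247 RPM in the product and 53.4 to 59.2 RPM in the lungs. Only 2 of the 16 were called higher against all 16 lungs, and 2 with the housekeeping scaling.

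Genes of other marrow lineages were also present. Of 16 mast cell, basophil and eosinophil genes, 12 were called higher and 1 lower (median 3.71). Cpa3, the mast cell carboxypeptidase, had 254 RPM in the product and 0.608, 1.02, 1.93 and 1.18 RPM in the lungs (log2 ratio 7.24). Prss34 and Mcpt8, proteases of mouse basophils, had 115 and 83.6 RPM in the product, against 0.598 to 0.852 and 0.404 to 0.784 RPM in the lungs. Cma1, a mast cell chymase, had 80.3 RPM in the product and 1.41 to 2.25 RPM in the lungs. Prg2 and Epx, eosinophil granule genes, had 29.3 and 4.79 RPM in the product, against 0.251 to 0.807 and 0.0673 to 0.0716 RPM in the lungs. Ear1, a ribonuclease gene that alveolar macrophages share, was the gene called lower, with 0.169 RPM in the product and 21.7 to 28.4 RPM in the lungs. The summed level of the list was 855 RPM in the product and 279 to 312 RPM in the lungs.

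Of 11 megakaryocyte and platelet genes 8 were called higher and none lower (median 2.66). Ppbp, a platelet chemokine, had 388 RPM in the product and 30.0, 41.0, 21.2 and 22.4 RPM in the lungs, and Pf4, platelet factor 4, had 305 RPM in the product and 12.2, 15.6, 9.71 and 10.0 RPM in the lungs (log2 ratio 4.62). Itga2b, the integrin chain CD41, had 243 RPM in the product and 27.8, 46.0, 18.7 and 23.1 RPM in the lungs. Tubb1, the tubulin of platelets, was below the lungs without a call, with 14.5 RPM in the product and 26.9 to 46.7 RPM in the lungs. With the housekeeping scaling 2 of the 11 were called higher and 2 lower. Erythroid genes were low, with 1 of 12 called higher and 6 lower (median -3.05). Hba-a1, an alpha globin gene whose near-identical copy Hba-a2 can share its reads, had 1.47 RPM in the product and 2447, 5259, 1090.1 and 648 RPM in the lungs. The globin genes, a sign of blood in a sample, summed to 0.000356% of reads in the product and to 0.143 to 1.15% in the lungs. The gene called higher, a call that the housekeeping scaling ended, was Tfrc, the transferrin receptor of all dividing cells, with 504 RPM in the product and 90.5 to 114 RPM in the lungs.

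Reads assigned to the IL-12 genes were few in the product. Il12a had 17.5 RPM (95% counting interval 16.1 to 19.1) in the product and 1.90, 2.01, 2.29 and 1.82 RPM in the lungs, a log2 ratio of 2.85. Il12b had 4.82 RPM (95% counting interval 4.08 to 5.66) in the product and 1.29, 0.818, 0.809 and 0.572 RPM in the lungs, a log2 ratio of 1.96, just under the limit. Il12b passed the limit with 0.1 RPM added in place of 0.5 (log2 ratio 2.34) and without No Tumor No Treatment lung 1 (log2 ratio 2.11). Both lay above all 4 lungs. Per kilobase of exon Il12a had 10.3 RPM and Il12b 2.45 RPM in the product, against 514 RPM for Mpo. The values are of the mouse genes listed in the deposited table. The sequence of the lentiviral construct, and whether its reads can align to these genes, are not given in the sources used here, so the transgene itself was not analysed here. Of 9 genes of the IL-12 family and its receptors 4 were called higher and none lower (median 1.96). Il12rb1, a chain of the IL-12 receptor, had 20.4 RPM in the product and 1.07 to 1.87 RPM in the lungs. Ebi3, a chain of IL-27, had 25.0 RPM in the product and 2.93 to 3.69 RPM in the lungs, and Il27 itself 2.64 RPM in the product and 0.0716 to 0.239 RPM in the lungs. Stat4, which carries the IL-12 signal, had 30.9 RPM in the product and 7.37 to 9.50 RPM in the lungs. Ifng, which IL-12 induces in T and NK cells, was low in both, with 1.80 RPM in the product and 0.141 to 0.273 RPM in the lungs. Il23a had no read in the product. Against all 16 lungs, with the housekeeping scaling or on the FPKM scale, 1 of the 9 was called higher, while 6 were with 0.1 RPM added.

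Other cytokines showed 2 of 15 genes called higher and 5 lower (background 8.30% and 24.1%), with a median of -0.14. Tnf had 26.7 RPM in the product and 0.752, 0.852, 1.34 and 0.740 RPM in the lungs (log2 ratio 4.26), and Osm, oncostatin M, had 16.7 RPM in the product and 1.11 to 1.81 RPM in the lungs. With all 16 lungs for comparison, or with the housekeeping scaling, 1 of the 15 was called higher. Tgfb1 had 323 RPM in the product and 91.4 to 111 RPM in the lungs and was not called. Il1b, at 20.9 RPM in the product, lay inside the lung range of 12.8 to 22.1 RPM. Il6, whose protein is named in the product's label, and Il10 had 1.80 and 0.289 RPM in the product. Vegfa, a growth factor of vessels, had the largest ratio in size, with 10.0 RPM in the product and 669 to 796 RPM in the lungs. Of 14 genes tied to myeloid suppression 1 was called higher and 2, Vegfa and Arg1, lower (median 0.41; 2 higher without No Tumor No Treatment lung 3). Lilrb4a, an inhibitory receptor, was the higher one, with 419 RPM in the product and 11.2 to 13.8 RPM in the lungs. Arg1, the arginase of suppressive myeloid cells, had no read in the product and 2.11 to 2.40 RPM in the lungs, and Nos2 had 5.91 RPM in the product and 8.66 to 11.5 RPM in the lungs. Cd274, which encodes PD-L1, had 79.2 RPM in the product and 29.5 to 36.6 RPM in the lungs without a call.

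Of 17 chemokine genes 8 were called higher and 1 lower (median 1.59). Beside the platelet genes Ppbp and Pf4, Ccl9 had 279 RPM in the product and 16.2 to 20.5 RPM in the lungs. Ccl3 and Ccl4, inflammatory chemokines, had 73.1 and 51.7 RPM in the product, against 0.774 to 0.9495 and 0.787 to 1.24 RPM in the lungs (log2 ratios 5.78 and 5.06). Ccl2, the ligand of Ccr2, had 24.4 RPM in the product and 0.443 to 0.716 RPM in the lungs. Cxcl2, a ligand that recruits neutrophils, had 0.900 RPM in the product, too low to be counted. Against all 16 lungs the count was 7 higher and 2 lower, and the median turned to -0.34. Of 10 chemokine receptor genes 4 were called higher and 3 lower (median 0.57). Among the higher ones, Ccr1, a receptor for inflammatory chemokines, had 177 RPM in the product and 11.8, 10.5, 11.6 and 9.89 RPM in the lungs (log2 ratio 3.96). Cxcr4, which holds cells in the marrow, had 138 RPM in the product and 84.7 to 111 RPM in the lungs. Ackr3, a scavenger of Cxcl12, had no read in the product and 46.9 to 66.3 RPM in the lungs. Of 14 adhesion genes 5 were called higher and 2 lower (median 1.38). Itgam, the integrin chain CD11b, had 743 RPM in the product and 39.7, 46.1, 41.5 and 46.9 RPM in the lungs (log2 ratio 4.08), and Selplg, the selectin ligand, had 401 RPM in the product and 76.3 to 105 RPM in the lungs. The adhesion count was 3 higher in each of these settings taken alone: without No Tumor No Treatment lung 1, with median-of-ratios scaling, and on the FPKM scale. It was 2 higher against all 16 lungs or with the housekeeping scaling.

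**Figure D3:**
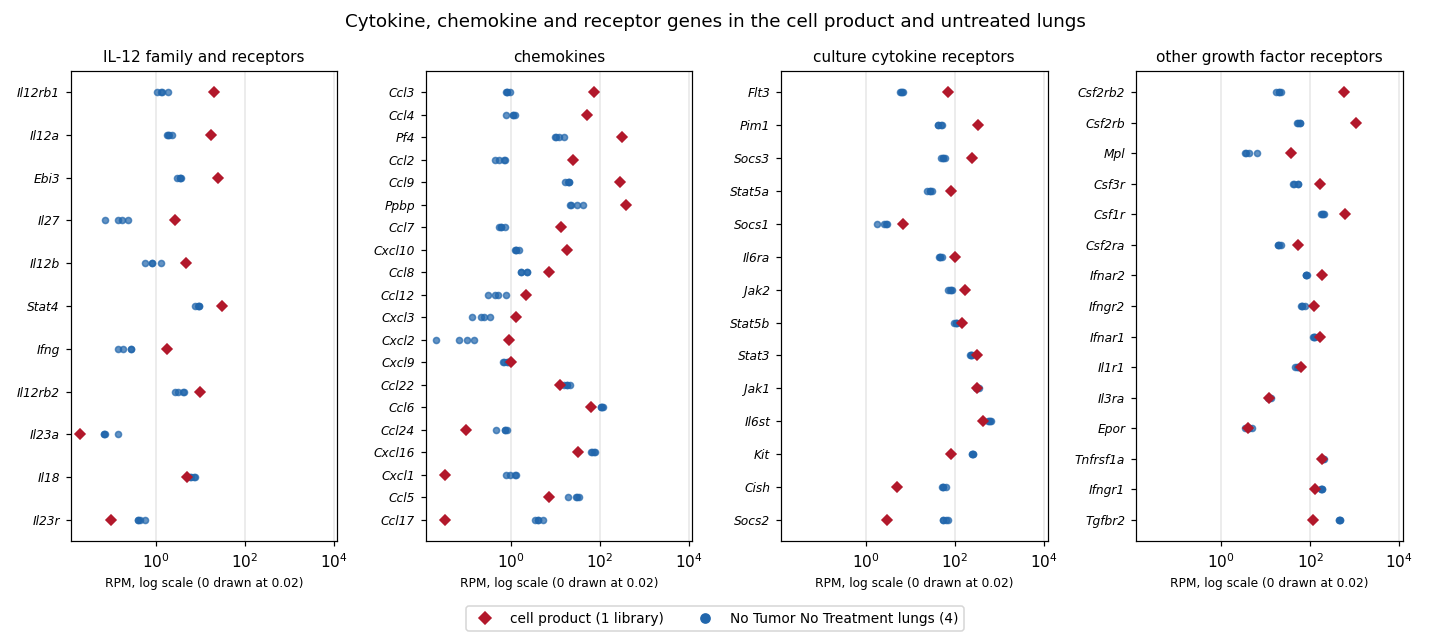
RPM on a log scale (a value of 0 is drawn at 0.02) of IL-12 family, chemokine and growth factor receptor genes, with the cell product as red diamonds (1 library) and the 4 No Tumor No Treatment lungs as blue points. Il12a and Il12b of the product lie right of the lungs at low values, while Csf2rb, Csf2rb2 and Ccl3 lie far to the right and Socs2 and Cish to the left.

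Receptors for the cytokines named in the label were read next. Of 14 genes of the SCF, FLT3L and IL-6 receptors and their signalling 3 were called higher and 2 lower (median 0.78). Flt3, the receptor for FLT3L, had 69.6 RPM in the product and 5.83, 6.10, 6.44 and 6.63 RPM in the lungs (log2 ratio 3.38). Kit is given above. Il6st, the shared signal chain of the IL-6 receptor, had 415 RPM in the product and 561 to 634 RPM in the lungs, and Il6ra, its ligand-binding chain, had 101 RPM in the product and 44.4 to 50.3 RPM in the lungs. Pim1 and Socs3, genes that cytokine signals through STAT proteins induce, had 324 and 244 RPM in the product, against 41.1 to 51.2 and 49.1 to 60.7 RPM in the lungs. Socs2 and Cish, further feedback genes, were called lower, Socs2 with 2.99 RPM in the product and 53.5 to 67.4 RPM in the lungs and Cish with 5.05 RPM in the product and 51.5 to 61.6 RPM in the lungs. With all 16 lungs for comparison 1 was called higher and 2 lower, and with the housekeeping scaling 1 higher and 3 lower. Of 15 other growth factor receptor genes 3 were called higher and none lower (median 0.85). Csf2rb, the common beta chain of the GM-CSF, IL-3 and IL-5 receptors, had 1092 RPM in the product and 51.4, 53.3, 59.8 and 59.0 RPM in the lungs (log2 ratio 4.28). Csf2rb2, its copy specific to the IL-3 receptor in the mouse, had 570.3 RPM in the product and 16.7, 19.9, 21.6 and 19.9 RPM in the lungs (log2 ratio 4.84). The 2 genes are near-identical, so reads may be split between them. Epor had 4.02 RPM in the product, inside the lung range of 3.33 to 4.91 RPM.

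Interferon response genes were moderately above the lungs, with 7 of 20 called higher and none lower, and a median of 1.81. The product lay above all 4 lungs in 19 of the 20. Gbp2, a guanylate-binding protein, had 309 RPM in the product and 99.6 to 114 RPM in the lungs, and Irf1 had 278 RPM in the product and 149.8 to 178 RPM in the lungs. Cxcl10 had the largest ratio, with 18.6 RPM in the product and 1.24 to 1.55 RPM in the lungs. Of 11 MHC class I genes 2 were called higher and none lower (median 1.24). B2m, its light chain, had 2499.7 RPM in the product and 974 to 1104 RPM in the lungs. H2-D1 had 1473 RPM in the product and 1242 to 1434 RPM in the lungs, and Nlrc5, the activator of the class, had 179 RPM in the product and 26.2 to 29.2 RPM in the lungs. Against all 16 lungs none of the 20 interferon genes was called higher and 1 was lower, and the list median turned to -0.40. With the housekeeping scaling 1 interferon gene was called higher and 1 lower, and on the FPKM scale 4 higher and none lower. None of the 11 class I genes was called in any of these, and 1 was called without No Tumor No Treatment lung 1 or 3.

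Cell division genes were high throughout. All 20 of the G2 and M phase genes were called higher (background 8.30%), with log2 ratios of 3.93 to 6.18 and a median of 5.22. Mki67, which encodes the proliferation marker Ki-67, had 1578 RPM in the product and 31.0, 27.4, 29.0 and 23.01 RPM in the lungs (log2 ratio 5.81; chr7:135689788-135716379). Top2a, the topoisomerase that untangles sister chromosomes, had 1072 RPM in the product and 16.5, 13.0, 14.8 and 12.8 RPM in the lungs (log2 ratio 6.18). Ccna2, cyclin A2, had 334 RPM in the product and 7.85, 5.93, 7.85 and 4.89 RPM in the lungs. Ccnb1, cyclin B1, had 136 RPM in the product and 2.76, 1.84, 1.20 and 1.85 RPM in the lungs, and its partner kinase gene Cdk1 had 148 RPM in the product and 4.22, 3.72, 3.94 and 2.76 RPM in the lungs. Plk1, a kinase that drives entry into mitosis, had 154 RPM in the product and 3.19, 2.22, 3.09 and 2.76 RPM in the lungs. The summed level of the 20 genes was 5659 RPM in the product and 102 to 135 RPM in the lungs. All 20 were also called higher against the 16 lungs, with the housekeeping scaling and on the FPKM scale.

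Of 24 G1 and S phase genes 18 were called higher and none lower (median 3.44). Rrm2, a subunit of ribonucleotide reductase, had the largest ratio, with 323 RPM in the product and 7.34, 5.56, 8.30 and 5.38 RPM in the lungs (log2 ratio 5.50). All 6 genes of the MCM helicase, Mcm2 to Mcm7, were called, with log2 ratios from 3.22 for Mcm4 to 4.32 for Mcm5. Cdk6, a cyclin D kinase, had 629 RPM in the product and 75.1, 73.7, 89.2 and 70.7 RPM in the lungs. Ccne1 and Ccne2, the E cyclins, had 41.8 and 39.2 RPM in the product, against 1.00 to 1.62 and 0.625 to 1.39 RPM in the lungs. The D cyclins were not called: Ccnd3 had 279 RPM in the product and 153 to 165 RPM in the lungs, Ccnd2 had 258 RPM in the product and 179.7 to 232 RPM in the lungs, and Ccnd1, which lung cells also express, had 131 RPM in the product and 316 to 360.4 RPM in the lungs. Of 13 cell cycle inhibitor genes 2 were called higher and 2 lower (median 0.71, background 8.30% higher and 24.1% lower). Rbl1, an Rb-family gene, had 114 RPM in the product and 15.9 to 19.97 RPM in the lungs, and Cdkn2d had 85.9 RPM in the product and 15.0 to 16.8 RPM in the lungs. Cdkn2b, which encodes p15, had the largest ratio in size, with 0.225 RPM in the product and 32.9 to 35.3 RPM in the lungs, and Cdkn1c, which encodes p57, had 2.12 RPM in the product and 31.9 to 34.7 RPM in the lungs. Cdkn1a, which encodes p21, had 128 RPM in the product and 58.4 to 66.0 RPM in the lungs, and Cdkn1b, which encodes p27, had 42.6 RPM in the product and 51.5 to 59.5 RPM in the lungs. Cdkn2a was at 1 read in the product. With all 16 lungs for comparison or on the FPKM scale 1 inhibitor gene was called higher, and with the housekeeping scaling none.

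**Figure D4:**
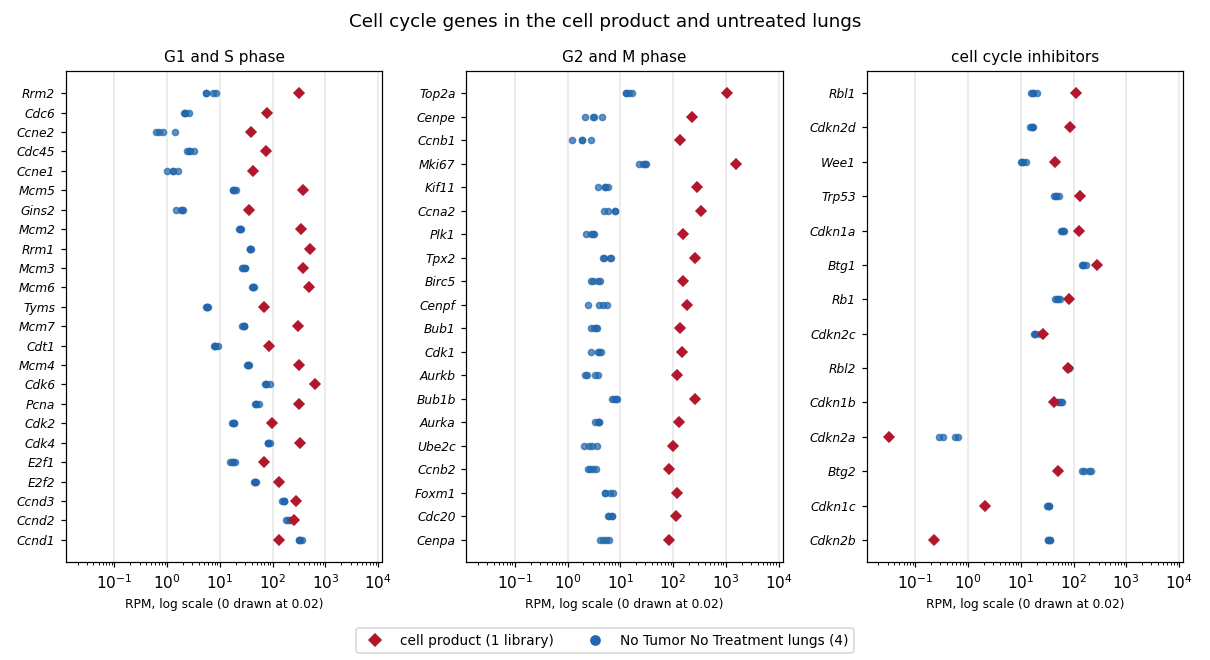
RPM on a log scale (a value of 0 is drawn at 0.02) of cell cycle genes, with the cell product as red diamonds (1 library) and the 4 No Tumor No Treatment lungs as blue points. All 20 G2 and M phase genes of the product lie right of the 4 lungs, and Cdkn2b and Cdkn1c lie left of them.

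The promoters of 3 G2 and M phase genes are shown, searched for 2 motifs known from cell cycle genes. Each run is the 150 bases before the start in RefSeq GRCm38.p6, 5′ to 3′ on the gene's strand: Ccnb1, chr13:100786487-100786636, minus strand; Cdk1, chr10:69352913-69353062, minus strand; and Plk1, chr7:122159285-122159434, plus strand. Capitals mark CCAAT, the box bound by NF-Y (ATTGG on the other strand), and TTTGAA, the core of the cell cycle genes homology region (CHR).
Ccnb1: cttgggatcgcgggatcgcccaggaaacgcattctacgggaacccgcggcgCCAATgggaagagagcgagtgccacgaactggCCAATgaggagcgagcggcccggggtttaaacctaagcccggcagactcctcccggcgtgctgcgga
Cdk1: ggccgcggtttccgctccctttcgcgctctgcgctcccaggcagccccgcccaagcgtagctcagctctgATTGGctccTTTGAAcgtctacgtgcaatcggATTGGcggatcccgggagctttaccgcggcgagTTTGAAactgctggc
Plk1: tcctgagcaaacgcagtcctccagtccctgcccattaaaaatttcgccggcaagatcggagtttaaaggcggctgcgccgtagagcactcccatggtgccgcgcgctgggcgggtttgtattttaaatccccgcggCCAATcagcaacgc
Ccnb1 held 2 of the boxes and Plk1 held 1. Cdk1 held 2, both as ATTGG, and 2 CHR cores. The CCAAT box was in 15 of the 16 promoters of the list that the table held (93.8%), against 24.5% of all 32851 promoters of the same window. The CHR core was in 6 of 16 (37.5%), against 9.07% of all. Both shares are a property of the listed genes, whatever the product expresses. The 32851 promoters were not limited to 1 start per gene or to measured genes. Over 607 promoters of genes called higher with at least 50 RPM in the product, 31.8% held a CCAAT box and 11.7% a CHR core. No factor binding was measured.

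The label names the cells as myeloid and from bone marrow. Ptprc, the leukocyte common antigen CD45, had 746 RPM in the product and 134, 180.4, 206 and 174 RPM in the lungs, while most genes of lymphocytes and of the lung framework were at or near 0 in the product. Of 16 T and NK cell genes 13 were called lower and 2 higher (median -3.07; background 24.1% lower). Cd3e had 0.0643 RPM in the product and 9.31 to 15.5 RPM in the lungs, and Gzma had 0.0321 RPM in the product and 19.6 to 33.6 RPM in the lungs. The 2 exceptions were Cd28, a costimulatory receptor, with 106 RPM in the product and 6.98 to 9.60 RPM in the lungs, and Gzmb, granzyme B, with 54.0 RPM in the product and 4.76 to 7.88 RPM in the lungs. Nkg7 had 19.8 RPM in the product and 8.23 to 13.9 RPM in the lungs. Against all 16 lungs, or with the housekeeping scaling, 1 of the 16 was called higher and 13 lower, and on the FPKM scale 2 were called higher and 3 lower. Of 10 B cell genes 8 were called lower and 1 higher (median -4.33), and 5 lower and none higher on the FPKM scale. Cd79a, a chain of the B cell receptor, had 0.321 RPM in the product and 73.4 to 131 RPM in the lungs, and Dntt, the polymerase of lymphoid progenitors, had 9.74 RPM in the product and 0.317 to 0.505 RPM in the lungs.

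Of 15 lung epithelium genes 14 were called lower (median -8.75), of 12 endothelium genes 11 (median -5.77) and of 14 fibroblast and stroma genes all 14 (median -8.52), and none of these was called higher. Scgb1a1, the club cell secretoglobin, had 0.193 RPM, or 6 reads, in the product and 30985, 31447, 30103 and 32420.5 RPM in the lungs. Sftpc, a surfactant protein of alveolar type II cells, was at 3 reads in the product and at 13802 to 15272 RPM in the lungs. Sftpb, also a surfactant protein, had no read in the product, so with a floor of 3 reads it was at least 47492-fold lower. Cdh5, the cadherin of endothelium, had 1.19 RPM in the product and 1449 to 1675 RPM in the lungs. Pecam1, an endothelial gene that myeloid cells also express, had 103 RPM in the product and 1007 to 1098 RPM in the lungs. Col1a2, a collagen gene, had 0.193 RPM in the product and 459 to 580.5 RPM in the lungs, and Pdgfrb, a receptor of pericytes, had 9.64 RPM in the product and 239.7 to 277 RPM in the lungs. Napsa, an aspartic protease of alveolar type II cells, was the epithelial gene not called, with 277 RPM in the product and 429.6, 455, 417 and 483 RPM in the lungs. Vwf, which megakaryocytes also make, was the endothelial gene not called, with 152 RPM in the product and 437 to 619.9 RPM in the lungs.

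By reads, not set per length, the 10 genes with the largest share of the product were Eef1a1, Actb, Hspa8, Eef2, Hsp90ab1, Lyz2, Psap, Pkm, B2m and Calr, with 9266 RPM for Eef1a1, 4192 RPM for Hspa8 and 2489.9 RPM for Calr. Per kilobase of exon the 10 highest, outside the gene classes left out of ranking, were Eef1a1, B2m, Lyz2, Actb, S100a9, Ftl1, Hsp90ab1, Ptma, Psap and Eef2, while Hspa8, Calr and Pkm ranked 19, 22 and 38. The 10 genes with most reads took 4.30% of reads in the product and 7.94 to 8.38% in the lungs. Hspa8, a constitutive chaperone, was called at the limit, with 4192 RPM in the product and 901 to 1202 RPM in the lungs (log2 ratio 2.01). It was the 1 gene called higher among 14 immediate early and heat shock genes (background 8.30% higher and 24.1% lower). Dusp1 and Fosb were called lower, and the list median was -0.36. The Hspa8 call was lost without No Tumor No Treatment lung 2 or 3, with median-of-ratios or housekeeping scaling and against all 16 lungs. Jun had 173 RPM in the product and 265 to 325 RPM in the lungs, and Hsph1 had 197 RPM in the product and 43.5 to 67.3 RPM in the lungs. Further genes among the 12 highest log2 ratios were Muc13, a membrane mucin, with 176 RPM in the product and 0.211 to 0.648 RPM in the lungs, Acod1, the enzyme that makes itaconate, with 105 RPM in the product and 0.101 to 0.545 RPM in the lungs, Pclaf, a clamp-associated replication factor, with 324 RPM in the product and 2.19 to 3.87 RPM in the lungs, and Saa3, an acute phase protein, with 164 RPM in the product and 0.886 to 1.78 RPM in the lungs.

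Whether the genes of the product stand out in treated lungs was asked next. Of the genes called higher, 758 had at least 50 RPM in the product, and 732 of them were above all 16 lungs, 4 of which had served to choose them. Of the 758, 345 were at least 4-fold over the highest of the 16. In Tumor+IL12-GEMy against Tumor No Treatment lungs, limma on log2(RPM + 0.5) over 15422 genes called 373 genes higher (2.42%) and 433 lower (2.81%) at an adjusted p of 0.05. Of 757 of the product's genes tested there, 57 were higher and 57 lower, with a median log2 fold change of 0.02, against -0.01 over all genes. Both counts depended on single lungs. The higher count was 36 without Tumor+IL12-GEMy lung 2, 37 without Tumor No Treatment lung 2 and 100 without Tumor No Treatment lung 3. The lower count was 32 without Tumor+IL12-GEMy lung 2, 34 without Tumor+IL12-GEMy lung 3 or Tumor No Treatment lung 3 or 4, and 125 without Tumor No Treatment lung 1. With only the 8 compared lungs in the fit the counts were 16 and 14.

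Tumor+IL12-GEMy lung 1 stood above the other 3 lungs of its group in the primary granule genes, so values are given with and without it. Mpo had 13.0, 3.90, 3.90 and 3.68 RPM in Tumor+IL12-GEMy lungs and 5.28, 6.72, 5.95 and 4.75 RPM in Tumor No Treatment lungs, against 1759 RPM in the product. The log2 fold change was -0.09 (SE 0.48, adjusted p = 0.954), and -0.50 (adjusted p = 0.684) without lung 1. In tumor-free mice Mpo had 0.471, 1.81, 5.10 and 1.38 RPM in No Tumor+IL12-GEMy lungs and 1.72, 2.01, 0.774 and 3.73 RPM in No Tumor No Treatment lungs, a log2 fold change of -0.09 (SE 0.48, adjusted p = 0.945). The groups overlapped in both pairs. The summed RPM of Mpo, Elane, Prtn3 and Ctsg was 2814 in the product, 14.4 ± 10.7 in Tumor+IL12-GEMy lungs and 14.6 ± 1.84 in Tumor No Treatment lungs (SD, n = 4 each), and 4.76 ± 3.50 in No Tumor+IL12-GEMy lungs and 3.37 ± 1.65 in No Tumor No Treatment lungs (SD, n = 4 each). No lung reached more than 1.08% of the product's sum. For Ctsg the tumor-bearing groups gave -0.87 (SE 0.30, adjusted p = 0.117), and -1.19 (adjusted p = 0.0112) without lung 1. Of 11 primary granule genes tested, Srgn was lower in Tumor+IL12-GEMy than in Tumor No Treatment lungs and none was higher. The Srgn call was lost without Tumor+IL12-GEMy lung 2 or 3 or Tumor No Treatment lung 4 (adjusted p = 0.0518 to 0.0938), and with median-of-ratios scaling (adjusted p = 0.0540), quantile normalization (adjusted p = 0.05001) and only the 8 compared lungs (adjusted p = 0.158). In tumor-free lungs Cst7 and Hk3 were higher and none was lower, where 789 of 15422 genes were higher (5.12%) and 243 lower (1.58%).

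**Figure D5:**
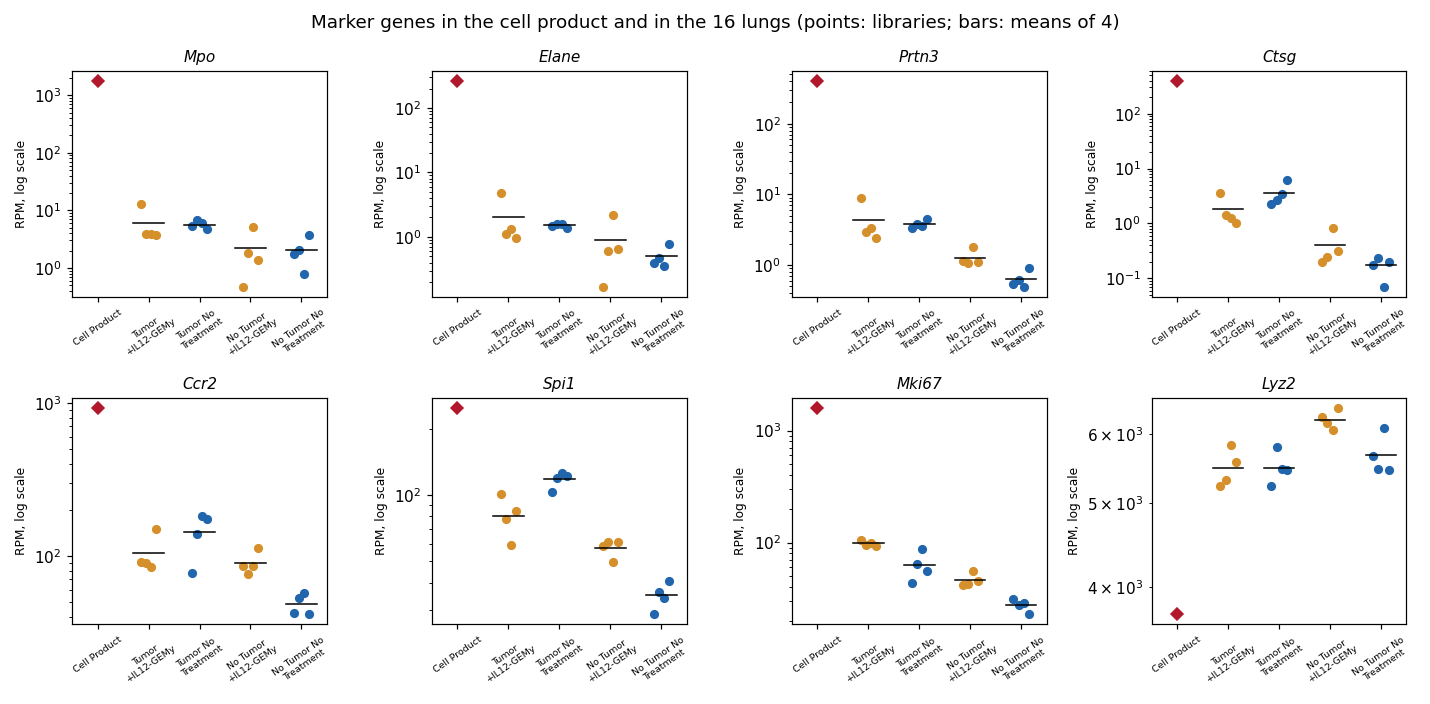
RPM on a log scale of 8 genes in the cell product (red diamond, 1 library) and in the 4 lungs of each group (orange, IL12-GEMy; blue, No Treatment), with black bars at group means. The product lies above all 16 lungs in each gene but Lyz2, and 1 Tumor+IL12-GEMy lung lies above its group in Mpo, Elane, Prtn3 and Ctsg.

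Other marker genes of the product did differ between lungs. Every tumor-free comparison uses the 4 No Tumor No Treatment lungs that also set the product's ratios. A value low by chance in those lungs would raise both. Spi1 had 101, 77.6, 59.4 and 84.4 RPM in Tumor+IL12-GEMy lungs and 103, 119.8, 127 and 123 RPM in Tumor No Treatment lungs, a log2 fold change of -0.57 (SE 0.13, adjusted p = 0.0170), and 58.7, 61.5, 49.8 and 60.9 RPM in No Tumor+IL12-GEMy lungs and 28.7, 36.3, 34.1 and 40.7 RPM in No Tumor No Treatment lungs, a log2 fold change of 0.72 (SE 0.13, adjusted p = 0.00213). The fall in tumor-bearing lungs missed the threshold without Tumor+IL12-GEMy lung 2 or 3 or Tumor No Treatment lung 3 (adjusted p = 0.0516 to 0.0524), and with only the 8 compared lungs (adjusted p = 0.0783). Mki67 had 106, 95.7, 99.9 and 93.7 RPM in Tumor+IL12-GEMy lungs and 43.6, 63.9, 87.5 and 55.7 RPM in Tumor No Treatment lungs, a log2 fold change of 0.70 (SE 0.15, adjusted p = 0.0119), with no overlap. With only the 8 compared lungs its adjusted p was 0.0801. In tumor-free mice Mki67 had 41.7, 42.8, 55.2 and 45.5 RPM in No Tumor+IL12-GEMy lungs and 31.0, 27.4, 29.0 and 23.01 RPM in No Tumor No Treatment lungs, a log2 fold change of 0.73 (SE 0.15, adjusted p = 0.00627). Over all genes 2.42% were higher and 2.81% lower in the tumor-bearing pair, and 5.12% higher and 1.58% lower in the tumor-free pair. Of the 20 G2 and M phase genes 8 were higher and none lower in the tumor-bearing pair and 12 higher and none lower in the tumor-free pair. The 8 became 5 without Tumor+IL12-GEMy lung 1, 2 or 3 or Tumor No Treatment lung 1 or 2, 16 without Tumor No Treatment lung 3, and 1 with only the 8 compared lungs in the fit. The 12 became 7 without No Tumor No Treatment lung 2. Other lists moved in the same lungs: T and NK cell genes were 4 of 16 higher in the tumor-bearing pair and 10 of 16 higher in the tumor-free pair, and none was lower. Interferon response genes were 15 of 20 higher in the tumor-bearing pair and 20 of 20 higher in the tumor-free pair. Mature neutrophil genes were 1 of 14 higher and 7 lower in the tumor-bearing pair, and 2 higher and none lower in the tumor-free pair. The part of these cells in the cell division and monocyte counts was not tested. Ccr2 had 85.3, 76.2, 85.2 and 112 RPM in No Tumor+IL12-GEMy lungs and 42.1, 53.1, 56.9 and 41.6 RPM in No Tumor No Treatment lungs, a log2 fold change of 0.88 (SE 0.24, adjusted p = 0.0354), a call lost on leaving out any of 6 of the 8 lungs. Of 16 monocyte genes 8 were higher and none lower in that pair (5 higher without No Tumor+IL12-GEMy lung 4 or No Tumor No Treatment lung 1 or 4), Ly6c2 with a log2 fold change of 2.44 (SE 0.21, adjusted p = 7.58e-07) and Plac8 with 2.19 (SE 0.28, adjusted p = 7.10e-05). In the tumor-bearing pair 1 monocyte gene, Irf8, was higher and 5 were lower. The 5 became 3 without Tumor+IL12-GEMy lung 2 or 3 or Tumor No Treatment lung 2, 3 or 4, and 9 without Tumor No Treatment lung 1. With only the 8 compared lungs 2 were lower and none higher, with an adjusted p of 0.0590 for Irf8. Ccr2 gave -0.43 (SE 0.24, adjusted p = 0.376) there, and -0.70 (adjusted p = 0.0290) without Tumor No Treatment lung 1.

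Il12b had 1.75, 1.87, 2.71 and 3.11 RPM in No Tumor+IL12-GEMy lungs and 1.29, 0.818, 0.809 and 0.572 RPM in No Tumor No Treatment lungs, a log2 fold change of 1.06 (SE 0.21, adjusted p = 0.00435), with no overlap. In tumor-bearing mice Il12b had 2.85, 3.87, 3.87 and 4.70 RPM in Tumor+IL12-GEMy lungs and 2.75, 2.17, 4.57 and 3.95 RPM in Tumor No Treatment lungs, a log2 fold change of 0.19 (SE 0.21, adjusted p = 0.707). Il12a went the other way in tumor-free mice, with 1.48, 1.26, 1.34 and 0.898 RPM in No Tumor+IL12-GEMy lungs and 1.90, 2.01, 2.29 and 1.82 RPM in No Tumor No Treatment lungs, a log2 fold change of -0.53 (SE 0.15, adjusted p = 0.0481). The Il12a call was lost on leaving out any one of the 8 lungs and with median-of-ratios scaling. In tumor-bearing mice Il12a gave -0.16 (SE 0.15, adjusted p = 0.650). Among the product's genes the largest rises in the tumor-bearing pair were Serpina3f, Tgtp1, Gbp5, Prss34 and Gbp3, all but Prss34 genes that interferon induces. Prss34 had 13.9, 5.27, 9.02 and 7.36 RPM in Tumor+IL12-GEMy lungs and 2.17, 1.82, 1.27 and 5.73 RPM in Tumor No Treatment lungs, against 115 RPM in the product, a log2 fold change of 1.63 (SE 0.31, adjusted p = 0.00518). The largest falls were Wfdc17, Clec4e, Cd300ld, Clec4d and Lilr4b. Clec4e had 32.6, 19.4, 14.0 and 21.4 RPM in Tumor+IL12-GEMy lungs and 44.8, 51.6, 57.0 and 76.4 RPM in Tumor No Treatment lungs, a log2 fold change of -1.41 (SE 0.22, adjusted p = 0.00121). Gbp5 had 422, 549, 564 and 452 RPM in Tumor+IL12-GEMy lungs and 49.6, 113, 170.3 and 235 RPM in Tumor No Treatment lungs, a log2 fold change of 2.00 (SE 0.33, adjusted p = 0.00204). With only the 8 compared lungs in the fit the adjusted p was 0.0950 for Prss34 and 0.0603 for Gbp5. The lungs hold host cells that express the same genes, and the share of reads that came from injected cells was not tested.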

How the data were processed

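The data were bulk RNA sequencing of 1 cell product and 16 lungs (4 groups of 4). Per the labels' protocols, lung RNA was isolated with TRIzol and prepared by standard Illumina protocols. Alignment with STAR 2.7.3a and use of Partek and mm10 are named in the submitters' processing notes; the annotation and strand setting are not given in the sources used here. The authors deposited FPKM for 18262 genes, with no mitochondrial gene. FPKM times the genomic span of a gene over 1000 summed to 1000000 in every library, so that product was used as RPM. The smallest step gave the read totals, and a share of 86.6 to 88.5% of the values below 1000 reads came out whole (within 0.02), so no count test was run. Overlapping and antisense genes may share reads.

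The groups came from the labels. The product was set against the mean and range of the 4 No Tumor No Treatment lungs without a test, on log2(RPM + 0.5). Exon lengths for levels between genes came from GENCODE M21 by symbol (97.3% matched), and promoters from RefSeq GRCm38.p6 by symbol (607 of 758 high genes matched). Lungs were fitted with limma 3.58.1 in R 4.3.3 on log2(RPM + 0.5), with trend and robust moderation, 2-sided, over genes with at least 0.5 RPM in at least 4 lungs, with Benjamini-Hochberg adjustment at 0.05, as 4 group means. The interaction of tumor and treatment came from the same fit. Fold changes on this scale understate changes of genes near the added 0.5. Tables came from Python 3.11.15. Counting intervals are exact 95% Poisson intervals, and they and the floor of 3 reads cover counting error only. Both the fold calls and the fit were run on simulated data with noise simpler than that of real lungs. Those runs check the steps only, and not their error rates here.

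The gene lists (34, with 476 genes in the table) and the marker genes were chosen with earlier results of these data known. The genes named were taken from 15 fixed genes, the 10 most abundant, the 12 highest and 8 lowest log2 ratios, the 3 most abundant members and the largest ratio of each list, and, in lungs, the 5 largest rises and falls among the product's genes. Rankings skipped predicted genes, pseudogenes, histone and ribosomal protein genes, receptor segments and small RNAs. Other genes named were chosen after their values were seen, and values of a few list members are not reported here. Alternatives covered scaling, pseudocount, minimum, fold, comparison lungs, a replicate block and leaving out each lung. The housekeeping scaling was added after seeing the data.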

Additional observations from a re-analysis of the deposited data

Results flagged for a closer look

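In Tumor+IL12-GEMy lungs 1 library stood far from the other 3 for 7 of the 15 fixed genes. Chance alone marks about 1 in 20 groups of 4 where genes vary independently. The genes here were measured in the same libraries and can move together, so the marks are not separate draws. Over 60 groups looked at, 9 were marked in all. Mpo reached 13.0 RPM in Tumor+IL12-GEMy lung 1, Elane 4.81 RPM, Prtn3 8.94 RPM, Ctsg 3.64 RPM and S100a8 1008 RPM, each far above the other 3 lungs of its group. In Tumor+IL12-GEMy lung 4, Ccr2 reached 149 RPM and Ptprc, the leukocyte common antigen CD45, 446 RPM. In No Tumor+IL12-GEMy lungs Prtn3 reached 1.79 RPM in lung 3, and Flt3 was at 3.73 RPM in lung 1, below the other 3. The reason for these values was not tested.

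The effect of IL12-GEMy differed with tumor for 3 of the 15 fixed genes, tested as the interaction in the limma fit. The share of all genes with such a difference was not counted, so the 3 have no background here. The interaction was not refitted with single lungs left out. The log2 effect in tumor-bearing minus that in tumor-free mice was -1.31 for Ccr2 (adjusted p = 0.0341), -1.29 for Spi1 (adjusted p = 0.00109) and -1.003 for Ptprc (adjusted p = 0.0492). Ptprc had 338, 340.2, 322 and 446 RPM in Tumor+IL12-GEMy lungs and 290.1, 418, 523 and 623 RPM in Tumor No Treatment lungs, and 251, 268, 245 and 355 RPM in No Tumor+IL12-GEMy lungs and 134, 180.4, 206 and 174 RPM in No Tumor No Treatment lungs. In the product Ptprc had 746 RPM.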

How the results depend on the processing

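The product's calls barely moved with the lung left out: genes past 4-fold numbered 4774 to 4810 (4776 with all 4 lungs), higher genes 1221 to 1256, lower genes 3536 to 3573 and called list members 262 to 263. They moved with the limit and the scale. A limit of 2-fold gave 8398 calls, 3340 of them higher, and a limit of 8-fold gave 3006, with 524 higher. On log2(FPKM + 0.5), where long genes fall under the added 0.5, there were 1690 calls, 577 higher and 1113 lower. The housekeeping scaling, chosen after seeing the data, gave 479 higher. In lungs, the counts fell or rose with single libraries: 489 to 1099 genes were called in Tumor+IL12-GEMy against Tumor No Treatment (806 with all, 489 without Tumor+IL12-GEMy lung 2), 36 to 100 of the product's genes were higher and 32 to 125 lower, and 659 to 963 genes were called in No Tumor+IL12-GEMy against No Tumor No Treatment (1032 with all, 659 without No Tumor+IL12-GEMy lung 4). With only the 8 compared lungs these counts were 243, 16, 14 and 1720. The cause of these shifts was not tested. Same-numbered lungs did not deviate together in every pair (correlations -0.16 to 0.25), nor did every lung correlate best with its own number. So few correlations cannot show whether the numbers pair the lungs, and the main fit used no pairing. A replicate block gave 1036 calls in the tumor-bearing pair, with 76 of the product's genes higher and 75 lower, and 1216 in the tumor-free pair. The product's profile rests on 1 library, and no setting can supply its replicate error.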

Other observations

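Among the product's higher genes outside the lists, ranked by RPM after the values were seen, Tgfbi, an extracellular matrix protein gene of monocytes and macrophages, had 1782 RPM in the product and 122 to 135 RPM in the lungs. Spp1, osteopontin, had 1728 RPM in the product and 54.0 to 66.0 RPM in the lungs. Ifitm1, an interferon-induced membrane protein gene, had 1259.7 RPM in the product and 39.5 to 42.4 RPM in the lungs. Lcp1, the leukocyte plastin, had 1913 RPM in the product and 392 to 467 RPM in the lungs, and Mpeg1, the pore-forming protein of macrophages, had 1359 RPM in the product and 258 to 337 RPM in the lungs. Genes of ribosome making and glycolysis were also in this set. Ncl, nucleolin, had 2290.2 RPM in the product and 301 to 341 RPM in the lungs, and Npm1, nucleophosmin, had 897 RPM in the product and 73.8 to 98.5 RPM in the lungs. Pkm, pyruvate kinase, had 3056 RPM in the product and 447 to 521 RPM in the lungs, and Ldha, lactate dehydrogenase, had 1335 RPM in the product and 271 to 297 RPM in the lungs. For each of these genes the product lay above all 16 lungs.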
